A study of Homo sapiens with 11 samples.

Results

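GTEA7 and GTEA1 are extracts rich in triterpenoids from Ganoderma, the bracket fungi used in traditional medicine, and the comparison asked how the RNA of HCT116 cells differed between the one and the other. HCT116 is an established line of epithelial cells from a human colorectal carcinoma and carries a RAS mutation, which all groups share, and the series title sets the extracts in a study of colon cancer stemness and migration. All libraries came from this line after 48 h and from 1 batch by the labels: 4 libraries of cells given GTEA7, 4 given GTEA1 and 3 given the solvent DMSO as control. The 8 extract libraries were chosen by their labelled treatment and not by any measured value, and they are 8 of the 11 in the series. Of 61464 features in the deposited table, 17963 had enough counts to be tested. No label or header states the composition or dose of either extract, so a difference between extracts and a difference between doses cannot be told apart. The labels also do not say whether replicates were separate cultures, so each p-value measures only the spread between these libraries.

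Total counts ran from 14955685 to 19304211 in the GTEA7 libraries, from 13742326 to 16433111 in the GTEA1 libraries and from 13866350 to 17431515 in DMSO. Levels are given in CPM, counts scaled to a common library total after adjustment by trimmed mean of M-values, and a gene passed when its adjusted p was under 0.05 by edgeR's quasi-likelihood test over all 17963 genes. A level written with ± is the mean and SD over the 4 libraries of a group, and a log2 fold change written with ± has its standard error. In bulk RNA, fewer cells of a kind and less RNA per cell cannot be told apart, and CPM cannot show a change in total RNA. Of 8 colon epithelial markers 7 had enough counts to be tested, and VIL1, the microvillus protein villin, did not, with 28 counts in all 11 libraries. Their summed level was 2229 to 2325 CPM in GTEA7, 2721 to 2849 in GTEA1 and 2233 to 2382 in DMSO. Of 22 markers of fibroblasts, endothelium, leukocytes and other cells 6 had enough counts, and the list summed to 44.3 to 55.6 CPM in GTEA7 and 47.3 to 55.0 in GTEA1, below the 62.0 to 65.5 CPM in DMSO, with 6 to 11 of the 22 markers at 0 in any 1 extract library. COL1A1 made up most of the counts of this list. It held 585 to 764 of 751 to 971 in the GTEA7 libraries and 551 to 658 of 667 to 857 in the GTEA1 libraries. The fibroblast collagen COL3A1 stood apart in 1 library: it had 42 counts in GTEA1 replicate 4 and 0 to 2 in the other GTEA1 libraries. Its difference between the extracts did not pass with that library (log2 1.13, edgeR adjusted p = 0.27) and passed without it (log2 4.44, edgeR adjusted p = 1.8e-11). Some other fibroblast markers also had their highest counts in GTEA1 replicate 4 among the GTEA1 libraries. COL1A2 had 12 counts there against 0, PDGFRB 8 against 1 to 2 and LUM 2 against 0. COL1A1 had 658 counts there against 551 to 581, but that library also had the largest GTEA1 total, 16433111 against 13742326 in replicate 1. Scaled to library size, COL1A1 was not higher there than in GTEA1 replicate 1, which had 551 counts. DCN had 0 there. The cause was not tested.

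Several of the gene groups below belong to stress pathways. When amino acids run short, unfolded protein builds up in the endoplasmic reticulum or heme is lacking, cells phosphorylate a translation initiation factor and make ATF4, a transcription factor that turns on genes for amino acid synthesis, uptake and tRNA charging as well as CHOP (DDIT3). NRF2 is a second stress factor: it escapes degradation when reactive compounds modify KEAP1, and it drives genes for glutathione, heme breakdown and detoxification. In colon cancer lines, Wnt signalling through beta-catenin sustains crypt stem cell genes. The SREBP factors set cholesterol and fatty acid synthesis in response to the sterol level of the endoplasmic reticulum membrane.

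The extracts differed at most genes tested. Between GTEA7 and GTEA1, 13056 of 17963 genes passed (72.7%), with 6510 higher in GTEA7 (36.2%) and 6546 lower (36.4%). A difference of at least 2-fold was found for 2006 genes higher in GTEA7 (11.2%) and 1548 lower (8.62%), and against a threshold of 1.5-fold edgeR's glmTreat called 2566 higher (14.3%) and 2303 lower (12.8%). All 4 GTEA7 libraries lay above all 4 GTEA1 libraries for 5898 genes (32.8%) and below them for 5834 (32.5%). With scaling by library size alone the split was 7653 higher and 5455 lower, or 58.4% higher among the calls against 49.9%, and the median of all genes moved from 0.00 to 0.11 on the log2 scale. From the same fit, 4036 genes passed between GTEA7 and DMSO (22.5%) and 12895 between GTEA1 and DMSO (71.8%). The median absolute log2 fold change was 0.45 between the extracts, 0.14 for GTEA7 over DMSO and 0.47 for GTEA1 over DMSO. These last 2 contrasts share the DMSO libraries, and their values are set side by side here without a test between them. A principal component analysis of all 11 libraries put 77.4% of the variance on a first component, on which GTEA1 libraries scored -74.2 to -65.8, GTEA7 libraries 36.5 to 39.4 and DMSO libraries 42.8 to 44.9.

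**Figure D1:**
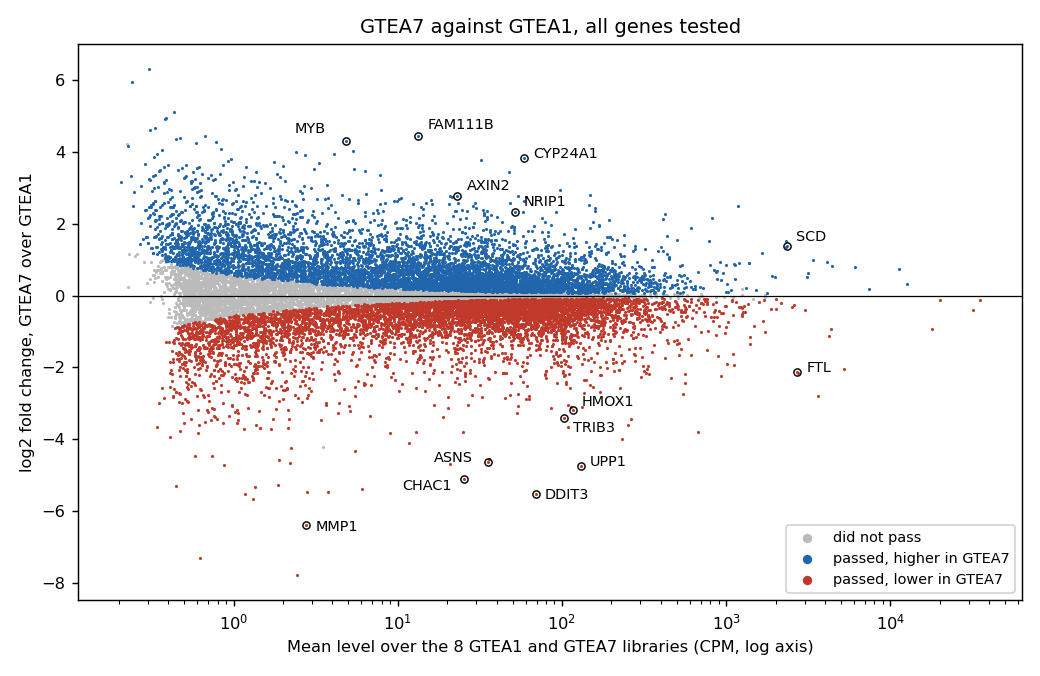
Log2 fold change of GTEA7 over GTEA1 (vertical axis) against the mean level over the 8 libraries in CPM (horizontal, log axis) for each of the 17963 genes tested; points are coloured by whether the gene passed and in which direction. Calls reach 36.2% of genes upward and 36.4% downward, and DDIT3, CHAC1, ASNS and MMP1 sit more than 4 log2 units below 0.

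Among genes with a symbol, at least 1 CPM on average and no overlap of libraries, the 10 that were highest in GTEA7 relative to GTEA1 were FAM111B, MYB, METTL7A, GJA1, ZCCHC12, CYP24A1, CYP4F23P, NCAM1, PADI3 and HPGD, with log2 fold changes from 4.45 down to 3.59. FAM111B, a nuclear protease linked to DNA replication, measured 27.4, 26.1, 24.9 and 24.0 CPM in the GTEA7 libraries and 1.38, 1.32, 0.982 and 1.03 CPM in the GTEA1 libraries. DMSO libraries held it at 24.7, 28.2 and 26.3 CPM, so that GTEA7 lay with DMSO and all GTEA1 libraries lay far below both. The difference was large against the spread (log2 4.45 ± 0.12, edgeR adjusted p = 7.0e-36). MYB, a transcription factor of proliferating progenitor cells, measured 9.19 ± 0.178 CPM in GTEA7 and 0.453 ± 0.314 CPM in GTEA1. GJA1, a gap junction protein, measured 4.51 ± 0.601 CPM in GTEA7 and 0.274 ± 0.0957 CPM in GTEA1. CYP24A1, the enzyme that inactivates vitamin D, measured 110.4 ± 5.06 CPM in GTEA7 and 7.78 ± 2.38 CPM in GTEA1. HPGD, which degrades prostaglandins, measured 2.20 ± 0.517 CPM in GTEA7 and 0.179 ± 0.101 CPM in GTEA1. CYP4F23P is a pseudogene whose reads may be shared with its parent family, so its value is uncertain.

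At the other end stood MMP1, KLHDC7B, DDIT3, SPX, KRT16P2, CHAC1, UPP1, LMOD1, ADTRP and ASNS, lower in GTEA7 with log2 fold changes of -6.39 to -4.63. MMP1, the interstitial collagenase, measured 0.0576, 0.0512, 0.0590 and 0.0657 CPM in the GTEA7 libraries and 5.06, 5.29, 5.83 and 5.78 CPM in the GTEA1 libraries, and 0, 0 and 0.0690 CPM in DMSO. It had 4 counts over all GTEA7 libraries and lay higher in every GTEA1 library (log2 -6.39 ± 0.30, edgeR adjusted p = 8.3e-25). UPP1, which cleaves uridine to uracil, measured 9.35 ± 0.598 CPM in GTEA7 and 251 ± 25.5 CPM in GTEA1. SPX, which encodes the peptide hormone spexin, measured 0.276 ± 0.0999 CPM in GTEA7 and 11.8 ± 1.64 CPM in GTEA1. LMOD1, an actin filament nucleator, measured 1.55 ± 0.276 CPM in GTEA7 and 39.8 ± 4.81 CPM in GTEA1. KLHDC7B had 3 counts over all GTEA7 libraries, and its ratio of GTEA1 to GTEA7 was 59.3 with a counting interval of 19.9 to 291. KRT16P2 is a keratin pseudogene and may share reads with its relatives.

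**Figure D2:**
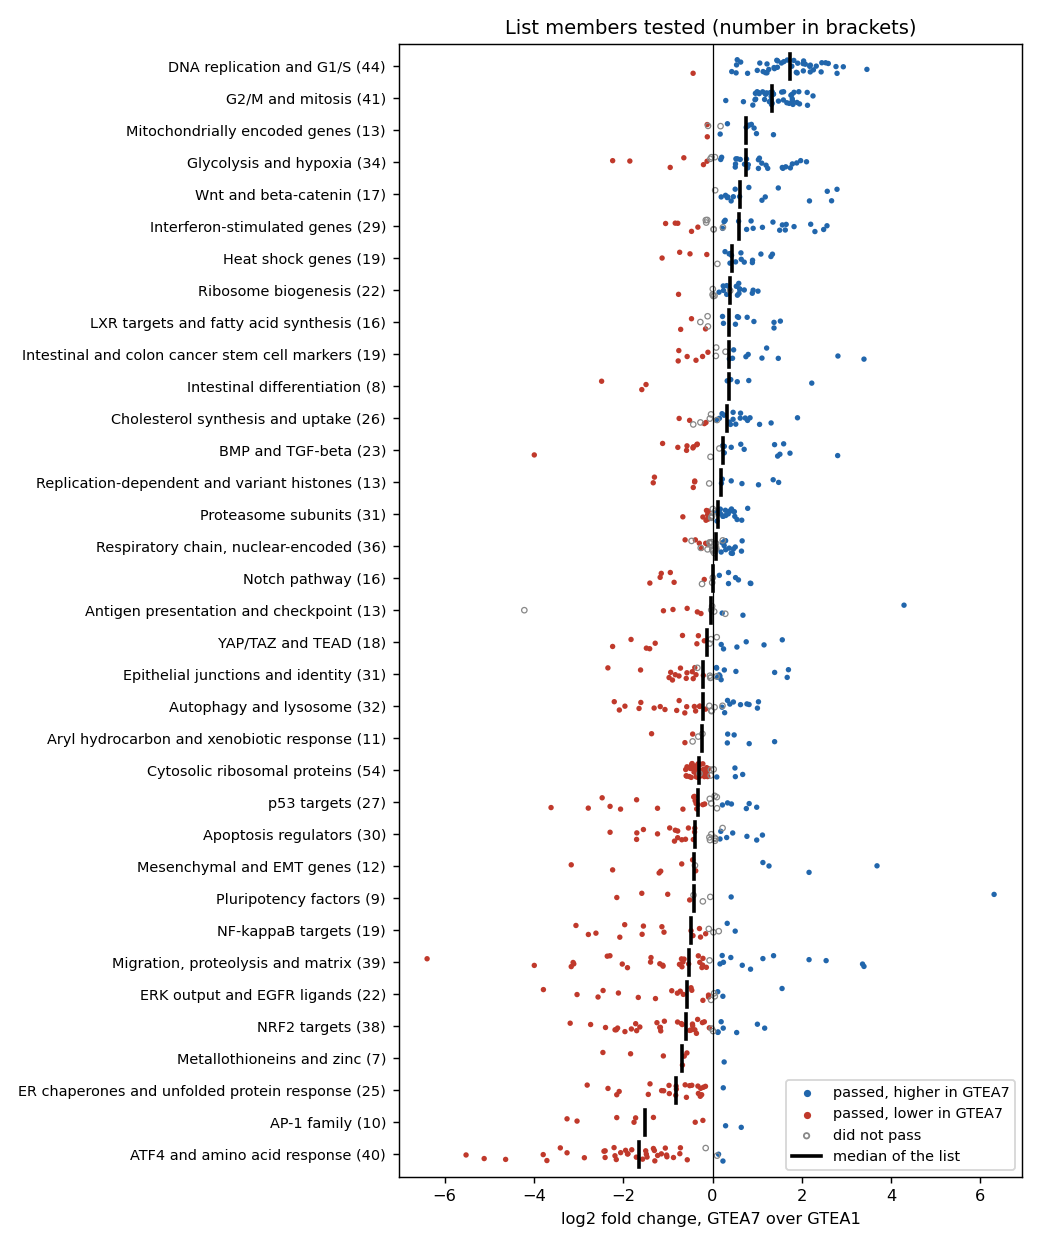
Log2 fold change of GTEA7 over GTEA1 (horizontal axis) for each tested member of 35 gene lists; filled points passed, open points did not, and black bars are list medians. Lists run from the ATF4 genes, median -1.64, to the DNA replication genes, median 1.73, where the median of all genes tested is 0.00. The point farthest right is SOX2, whose fitted value rests on no count in GTEA1 and is not a measured fold.

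The genes of the amino acid response were the group that lay lowest in GTEA7. Of 40 ATF4 and amino acid response genes tested, 36 were lower, 2 were higher and 2 did not pass, and their median log2 fold change was -1.64, beside 36.4% lower and a median of 0.00 over all genes. DDIT3, the CHOP transcription factor, measured 3.51, 2.97, 2.77 and 2.50 CPM in the GTEA7 libraries and 123, 127, 153 and 138 CPM in the GTEA1 libraries. DMSO held 3.17, 3.67 and 3.11 CPM, so GTEA7 and DMSO libraries shared a range and no GTEA1 library came near it. GTEA1 lay 45.8-fold above GTEA7 (log2 -5.52 ± 0.08, edgeR adjusted p = 3.0e-30). CHAC1, which breaks down glutathione, measured 1.79, 0.972, 1.24 and 1.71 CPM in the GTEA7 libraries and 51.3, 51.6, 46.0 and 47.0 CPM in the GTEA1 libraries (log2 -5.11 ± 0.10, edgeR adjusted p = 1.1e-40). ASNS, asparagine synthetase, measured 3.11, 2.30, 2.71 and 2.96 CPM in the GTEA7 libraries and 61.4, 65.2, 71.0 and 75.4 CPM in the GTEA1 libraries, again with no overlap (log2 -4.63 ± 0.08, edgeR adjusted p = 5.3e-42).

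Transporters and tRNA synthetases of the list were lower as well. TRIB3, a pseudokinase that restrains ATF4, measured 17.8 ± 0.920 CPM in GTEA7 and 189 ± 3.29 CPM in GTEA1. All 8 amino acid transporters tested were lower, among them SLC7A5 and SLC3A2, the light and heavy chains of a leucine transporter, at -2.18 ± 0.03 and -1.95 ± 0.03 on the log2 scale. SLC7A11, the cystine importer, measured 123, 121, 114 and 118 CPM in the GTEA7 libraries and 504, 537, 507 and 569.6 CPM in the GTEA1 libraries and 47.6, 45.5 and 45.5 CPM in DMSO; it stayed above DMSO in GTEA7 (log2 1.36 ± 0.05, edgeR adjusted p = 8.5e-29). All 9 tRNA synthetases tested were lower, including AARS1 for alanine (-2.43 ± 0.04) and SARS1 for serine (-2.06 ± 0.03). SHMT2, a mitochondrial serine hydroxymethyltransferase, and ALDH18A1, an enzyme of proline synthesis, were the 2 members higher in GTEA7, by 0.23 ± 0.04 and 0.14 ± 0.03 on the log2 scale. Relative to DMSO the list's median was 0.10 in GTEA7, where 18 of 40 members were higher and 4 lower (12.0% and 10.4% of all genes), and 1.73 in GTEA1.

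Promoters of this list were searched for the letters TGATGNAA, a core of the composite element that ATF4 and C/EBP proteins bind, on both strands from 250 bases before to 50 bases after each start in RefSeq's GRCh38.p14 windows. Of 34 members with a window 14 held it (41.2%), against 2.77% of all 11562 tested genes with a window. Below are the 250 bases before the start of ASNS (chr7:97872409-97872658, minus strand) and CHAC1 (chr15:40953221-40953470, plus strand), shown because they are 2 of the list's largest differences with a match. Capitals mark the match, 68 bases before the start in ASNS and, on the other strand, 209 before it in CHAC1.
ASNS: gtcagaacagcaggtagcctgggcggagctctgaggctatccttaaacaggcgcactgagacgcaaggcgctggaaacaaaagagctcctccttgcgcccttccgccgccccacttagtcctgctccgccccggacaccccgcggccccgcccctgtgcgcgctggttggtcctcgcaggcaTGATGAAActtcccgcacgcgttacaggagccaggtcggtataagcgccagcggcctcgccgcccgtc
CHAC1: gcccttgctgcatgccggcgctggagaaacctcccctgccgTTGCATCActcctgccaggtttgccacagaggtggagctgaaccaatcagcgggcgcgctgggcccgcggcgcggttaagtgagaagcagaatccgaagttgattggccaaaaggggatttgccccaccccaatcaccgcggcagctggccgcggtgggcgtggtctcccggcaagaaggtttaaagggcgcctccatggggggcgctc
A match describes the letters only.

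Genes of the endoplasmic reticulum moved the same way. Of 25 chaperone and unfolded protein response genes 24 were lower in GTEA7, with a median of -0.81, and 1 was higher. Of all genes 36.4% were lower and 36.2% higher. HSPA5, the chaperone BiP, is given here because its promoter is shown, a choice made after its values were seen. It measured 928, 902, 931 and 875 CPM in the GTEA7 libraries and 5553, 6319.9, 6631 and 6928 CPM in the GTEA1 libraries, and 799.9, 752 and 748 CPM in DMSO. No GTEA7 library came within reach of a GTEA1 library, while GTEA7 lay slightly above all DMSO libraries (log2 -2.81 ± 0.05, edgeR adjusted p = 3.9e-20). HERPUD1, which helps to clear misfolded protein, measured 44.7 ± 1.62 CPM in GTEA7 and 227 ± 12.7 CPM in GTEA1. DNAJB9, a cochaperone of BiP, measured 16.0 ± 0.953 CPM in GTEA7 and 70.9 ± 3.19 CPM in GTEA1. The sensor ATF6 was lower, at -1.14 and SEL1L, of the degradation complex, at -1.40 on the log2 scale. CALR, the calcium-binding chaperone calreticulin, was the member higher in GTEA7 at 751 ± 23.6 CPM in GTEA7 and 635 ± 21.0 CPM in GTEA1 (log2 0.24 ± 0.03, edgeR adjusted p = 4.3e-09). The endoplasmic reticulum stress element stood in 8 of 24 promoter windows of the list (33.3%) and in 0.147% of those of tested genes, and CALR is among the 8. The HSPA5 promoter (chr9:125241344-125241593, minus strand) carries it 66 bases before the start, in capitals.
HSPA5: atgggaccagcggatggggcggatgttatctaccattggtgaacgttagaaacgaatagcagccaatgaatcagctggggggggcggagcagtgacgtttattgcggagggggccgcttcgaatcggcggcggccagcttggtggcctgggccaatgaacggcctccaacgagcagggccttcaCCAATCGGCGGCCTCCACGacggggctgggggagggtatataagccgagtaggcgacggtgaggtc

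NRF2 targets were lower in GTEA7 than in GTEA1, but they did not lie at the DMSO level. Of 38 tested, 29 were lower and 7 higher than in GTEA1, with a median of -0.59, where 36.4% and 36.2% of all genes were. Against DMSO 25 were higher in GTEA7 and 1 lower, where 12.0% and 10.4% of all genes were, and the medians over DMSO were 0.43 for GTEA7 and 1.21 for GTEA1. HMOX1, heme oxygenase, measured 22.7, 23.7, 24.0 and 21.3 CPM in the GTEA7 libraries and 204, 210.5, 201 and 222 CPM in the GTEA1 libraries, beside 15.1, 14.4 and 17.0 CPM in DMSO. The 3 groups did not overlap, with GTEA7 just above DMSO and GTEA1 far above both (log2 -3.19 ± 0.05, edgeR adjusted p = 3.8e-47). TXNRD1, thioredoxin reductase, measured 539 ± 11.7 CPM in GTEA7 and 1664 ± 62.3 CPM in GTEA1. ABCC3, an exporter of conjugates, measured 124 ± 7.08 CPM in GTEA7 and 437 ± 11.0 CPM in GTEA1. NQO1, a quinone reductase, was nearer in the 2 extracts: 702, 742, 738 and 689.7 CPM in the GTEA7 libraries and 1055, 953, 979 and 922 CPM in the GTEA1 libraries, and 383, 380.2 and 371 CPM in DMSO (log2 -0.44 ± 0.03, edgeR adjusted p = 2.1e-16). The ferritin genes FTH1 and FTL were lower, at -2.73 and -2.13 on the log2 scale, but both have many processed copies that can share reads, so their values are uncertain. The antioxidant response core TGACNNNGC stood in 10 of 28 promoter windows of the list (35.7%) against 19.5% of tested genes.

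**Figure D3:**
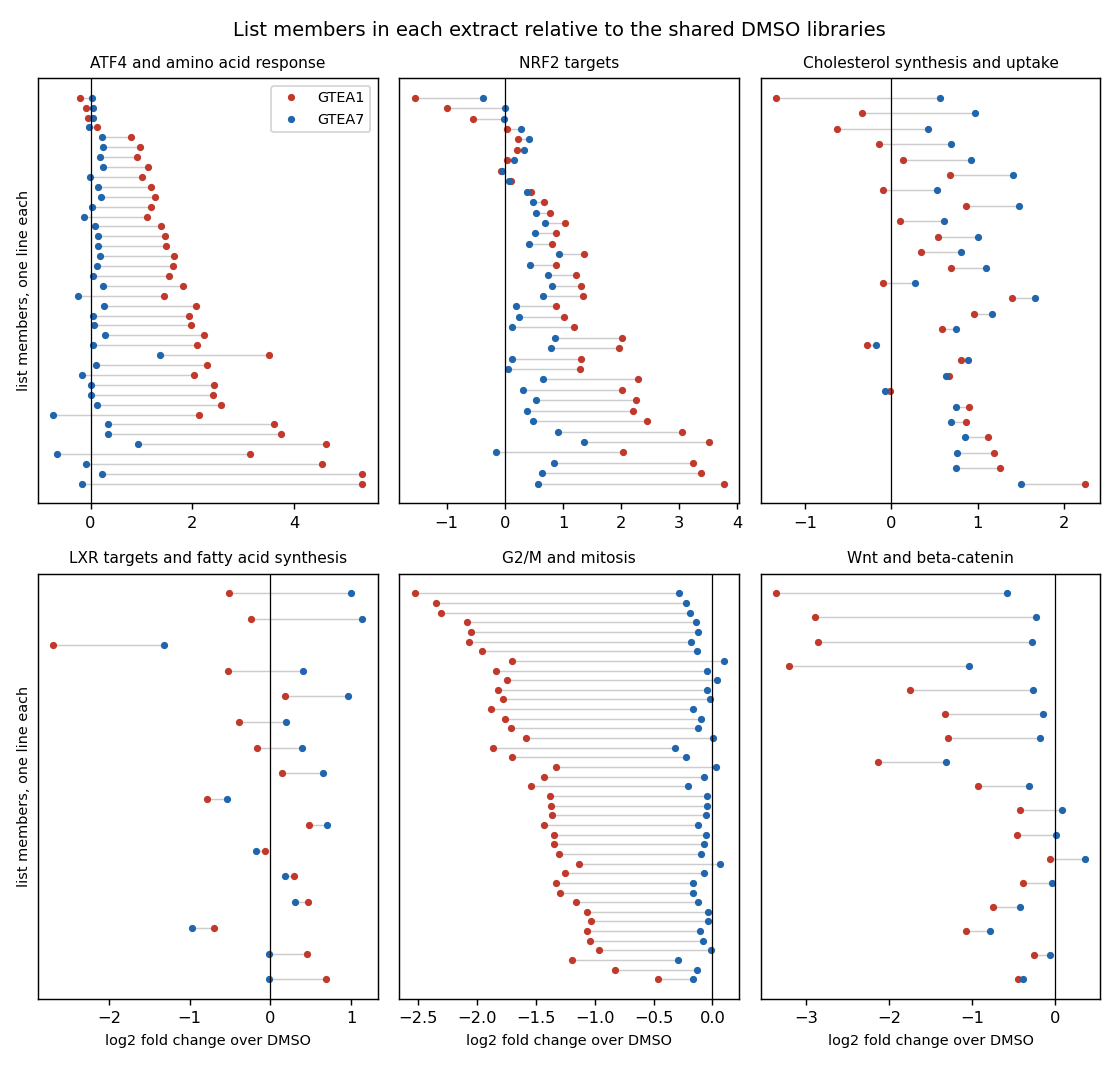
Log2 fold change over DMSO (horizontal axis) of every tested member of 6 lists in GTEA1 and in GTEA7, 1 line per member, ordered by the difference between extracts. GTEA7 points of the ATF4 list centre at 0.10 where GTEA1 points centre at 1.73, NRF2 targets at 0.43 and 1.21, and cholesterol genes at 0.76 and 0.63.

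Proliferation genes were the group that lay highest in GTEA7. All but 1 of 44 genes of DNA replication and the G1/S transition were higher, with a median of 1.73, and all 41 genes of G2/M and mitosis tested were higher, with a median of 1.34; 36.2% of all genes were higher. UHRF1, which maintains DNA methylation at forks, measured 90.6, 84.7, 92.2 and 84.2 CPM in the GTEA7 libraries and 29.2, 28.0, 27.0 and 26.1 CPM in the GTEA1 libraries, and 85.9, 92.1 and 92.5 CPM in DMSO. The GTEA7 and DMSO libraries overlapped, and both lay above every GTEA1 library (log2 1.68 ± 0.05, edgeR adjusted p = 3.0e-34). POLE, the leading strand polymerase, measured 157 ± 9.61 CPM in GTEA7 and 57.4 ± 2.24 CPM in GTEA1. CHAF1A, a chromatin assembly factor, measured 57.6 ± 3.47 CPM in GTEA7 and 12.7 ± 0.947 CPM in GTEA1. The exception was CCNE1, cyclin E, which was lower in GTEA7 (log2 -0.43 ± 0.06, edgeR adjusted p = 2.3e-09).

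CCNB1, the mitotic cyclin B, measured 128, 129.7, 133 and 121 CPM in the GTEA7 libraries and 38.8, 38.1, 37.3 and 34.4 CPM in the GTEA1 libraries, and 116, 133 and 125 CPM in DMSO. GTEA7 and DMSO overlapped and GTEA1 lay well under both (log2 1.79 ± 0.05, edgeR adjusted p = 3.3e-36). KIF11, the motor that separates spindle poles, measured 78.9 ± 2.93 CPM in GTEA7 and 20.5 ± 1.89 CPM in GTEA1. MAD2L1, a spindle checkpoint protein, measured 102 ± 5.18 CPM in GTEA7 and 29.4 ± 2.88 CPM in GTEA1. KIF20A, a kinesin of cytokinesis, was higher by 2.25 ± 0.06 on the log2 scale. Against DMSO, GTEA7 was not higher for any of the 41 mitosis genes and lower for 14, beside 12.0% and 10.4% of all genes. The median of these 41 over DMSO was -0.10 in GTEA7 and -1.43 in GTEA1. Of the 44 replication genes 2 were higher and 3 lower in GTEA7 than in DMSO, beside the same 12.0% and 10.4%.

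The promoters of both lists were searched for the letters of cell cycle elements, and each share is given beside that of all 11562 tested genes with a window. The cell cycle homology region, searched as TTTGAA or TTCGAA on either strand, stood in 27 of 35 mitosis genes with a window (77.1%) against 15.3%, and CCAAT in 26 of 35 (74.3%) against 42.8%. The E2F letters TTTGGCGC, TTTCCCGC or TTTCGCGC stood in 20 of 36 replication genes (55.6%) against 5.35%. KIF11 (chr10:92592880-92593129, plus strand) and UHRF1 (chr19:4909251-4909500, plus strand) are printed as 1 example of each list. Capitals in KIF11 mark CCAAT on the other strand at 53 bases and the homology region, also on the other strand, at 28 bases before the start, and in UHRF1 the E2F letters on the other strand at 14 bases.
KIF11: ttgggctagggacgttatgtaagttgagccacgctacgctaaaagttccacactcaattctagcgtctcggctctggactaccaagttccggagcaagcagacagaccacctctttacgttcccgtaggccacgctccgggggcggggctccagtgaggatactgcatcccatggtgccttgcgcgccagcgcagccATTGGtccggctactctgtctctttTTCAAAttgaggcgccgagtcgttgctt
UHRF1: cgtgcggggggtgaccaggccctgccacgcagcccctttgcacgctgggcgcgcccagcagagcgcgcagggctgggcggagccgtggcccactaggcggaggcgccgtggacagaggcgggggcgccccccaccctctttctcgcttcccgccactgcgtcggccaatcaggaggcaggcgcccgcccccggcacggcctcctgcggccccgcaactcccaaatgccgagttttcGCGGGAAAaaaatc

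**Figure D4:**
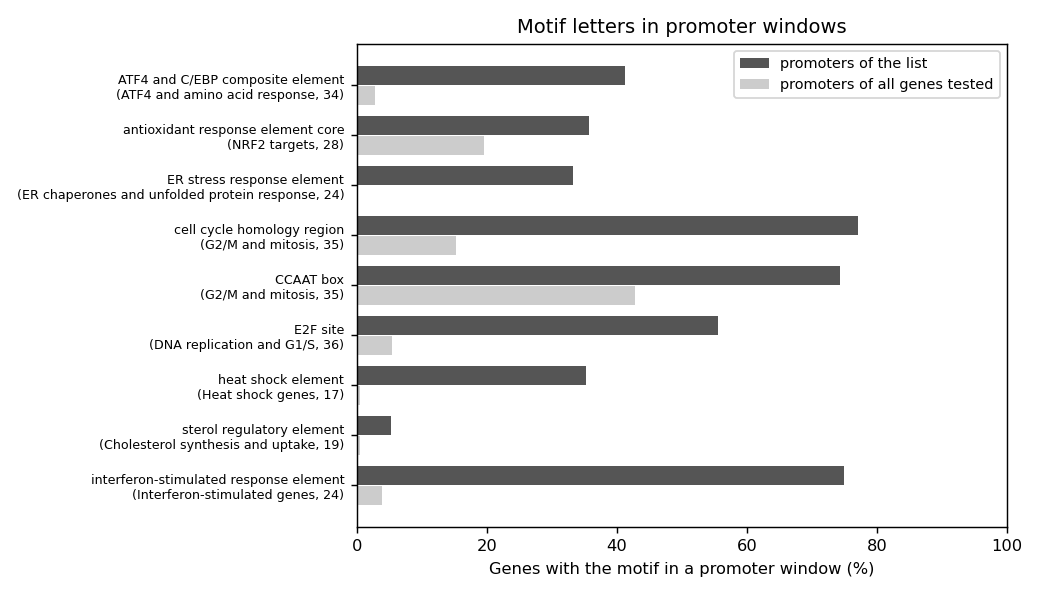
Share of genes with the motif letters in a promoter window (horizontal axis, percent), for the list named under each motif, with the number of its members that have a window, and for all tested genes with a window. The interferon element stands in 75.0% of its list against 3.81% of tested genes, and the sterol element in 5.26% against 0.519%.

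Cell cycle arrest and death genes were mixed. CDKN1A, the p21 inhibitor of cyclin-dependent kinases, measured 87.7, 87.7, 84.2 and 82.6 CPM in the GTEA7 libraries and 351, 350.1, 349 and 377 CPM in the GTEA1 libraries, and 82.9, 89.3 and 85.7 CPM in DMSO. GTEA7 overlapped DMSO, and GTEA1 lay 4.17-fold above GTEA7 (log2 -2.06 ± 0.04, edgeR adjusted p = 1.2e-43). GDF15, a secreted stress cytokine, measured 38.4 ± 1.49 CPM in GTEA7 and 469.7 ± 12.2 CPM in GTEA1. GADD45A, named for its induction by growth arrest and DNA damage, measured 32.5 ± 0.723 CPM in GTEA7 and 180.2 ± 7.64 CPM in GTEA1. PLK3, a stress-responsive kinase, measured 15.9 ± 0.824 CPM in GTEA7 and 109 ± 7.19 CPM in GTEA1. Of 27 p53 targets tested 16 were lower in GTEA7, 6 were higher and 5 did not pass, with a median of -0.33, where 36.4% of all genes were lower and 36.2% higher. Of 30 apoptosis regulators 16 were lower, 7 higher and 7 did not pass, with a median of -0.40. TNFRSF10B, the death receptor DR5, measured 157 ± 3.30 CPM in GTEA7 and 769.9 ± 48.1 CPM in GTEA1. The death factors BBC3 and PMAIP1 were lower, at -1.70 and -1.23, and the survival factors BCL2L1 and MCL1 at -0.96 and -0.83, on the log2 scale.

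Lipid synthesis genes were mostly higher in GTEA7 than in either other group. Of 26 genes of cholesterol synthesis and uptake 17 were higher in GTEA7 than in GTEA1 and 4 lower, with a median of 0.32. Of all genes 36.2% were higher and 36.4% lower. With library size as the only scaling 2 of the 26 were lower. Against DMSO 23 of the 26 were higher in GTEA7 and none lower, beside 12.0% and 10.4% of all genes. LSS, which closes the sterol rings, measured 47.2, 44.7, 45.3 and 43.0 CPM in the GTEA7 libraries and 12.0, 11.2, 12.9 and 11.9 CPM in the GTEA1 libraries, and 29.3, 32.3 and 29.7 CPM in DMSO. GTEA7 was highest, DMSO intermediate and GTEA1 lowest, with no overlap between any pair (log2 1.90 ± 0.06, edgeR adjusted p = 6.8e-32). That place of GTEA1 below DMSO was not typical of the list, whose medians over DMSO were 0.76 in GTEA7 and 0.63 in GTEA1. IDI1, of isoprenoid synthesis, and SQLE, squalene epoxidase, were higher by 0.73 ± 0.04 and 0.46 ± 0.03 on the log2 scale. The order was the other way for MSMO1, a sterol oxidase, at 192 ± 9.51 CPM in GTEA7 and 322 ± 10.5 CPM in GTEA1, which was above DMSO in GTEA7 by 1.50 on the log2 scale. MVD and HSD17B7, enzymes of the mevalonate and sterol steps, were lower, at -0.15 and -0.18, and with library size as the only scaling neither passed (log2 -0.04, edgeR adjusted p = 0.42, and log2 -0.07, edgeR adjusted p = 0.25).

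Fatty acid genes were mostly higher in GTEA7 than in GTEA1, and their medians over DMSO were 0.65 in GTEA7 and 0.14 in GTEA1. SCD, the desaturase that makes oleic acid, measured 3339, 3332, 3384 and 3448 CPM in the GTEA7 libraries and 1277, 1322, 1399.8 and 1200.4 CPM in the GTEA1 libraries, and 1511, 1555 and 1533 CPM in DMSO. Every GTEA7 library lay above every DMSO library, and every GTEA1 library below (log2 1.38 ± 0.04, edgeR adjusted p = 5.7e-36). FASN, fatty acid synthase, measured 1219.6, 1152, 1103 and 1155 CPM in the GTEA7 libraries and 431, 419, 430.2 and 336 CPM in the GTEA1 libraries (log2 1.52 ± 0.08, edgeR adjusted p = 5.0e-08). ACLY and ACACA, which supply its substrates, and ELOVL6, which lengthens its product, were higher by 0.93, 0.51 and 0.78 on the log2 scale. Of the 9 fatty acid genes 7 were higher in GTEA7 than in GTEA1 and 1 lower, beside 36.2% and 36.4% of all genes. Against DMSO 8 of the 9 were higher and none lower, beside 12.0% and 10.4% of all genes. SREBF1, the factor behind fatty acid synthesis, was slightly lower (log2 -0.16 ± 0.04, edgeR adjusted p = 4.4e-04), but not with library size as the only scaling (log2 -0.05, edgeR adjusted p = 0.28). ABCA1, the cholesterol exporter and a target of the sterol sensor LXR, measured 4.43, 4.04, 5.19 and 5.52 CPM in the GTEA7 libraries and 1.99, 1.76, 1.90 and 1.67 CPM in the GTEA1 libraries, and 11.7, 12.4 and 11.3 CPM in DMSO. GTEA7 lay between the other groups, above GTEA1 (log2 1.38 ± 0.15, edgeR adjusted p = 2.2e-11) and below DMSO (log2 -1.32 ± 0.11, edgeR adjusted p = 4.1e-14). In the promoters the sterol element TCACCCCAC stood in 1 of 19 cholesterol genes with a window (5.26%), against 0.519% of tested genes.

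Stem cell genes were divided in direction. Of 19 intestinal and colon cancer stem cell markers tested 10 were higher in GTEA7, 6 lower and 3 did not pass, with a median of 0.38. The share higher was 52.6% beside 36.2% of all genes, and the share lower 31.6% beside 36.4%. The surface markers CD44 and CD24 were higher and EPCAM and ALCAM lower. CD44, a hyaluronan receptor, measured 1081 ± 11.1 CPM in GTEA7 and 792 ± 20.2 CPM in GTEA1. CD24, a mucin-like antigen, measured 44.6 ± 1.25 CPM in GTEA7 and 19.3 ± 2.08 CPM in GTEA1. EPCAM, an epithelial adhesion molecule, measured 278 ± 9.36 CPM in GTEA7 and 359 ± 12.0 CPM in GTEA1, while ALCAM, an adhesion molecule of the immunoglobulin family, had 200.3 ± 1.32 CPM in GTEA7 and 341 ± 16.7 CPM in GTEA1. ALDH1A3, the aldehyde dehydrogenase behind a common stem cell assay, measured 127, 133, 130.1 and 132 CPM in the GTEA7 libraries and 224, 216, 225 and 214 CPM in the GTEA1 libraries, and 46.0, 44.7 and 42.0 CPM in DMSO. GTEA7 lay between the groups without overlap, lower than GTEA1 (log2 -0.75 ± 0.03, edgeR adjusted p = 7.5e-26) and higher than DMSO (log2 1.56 ± 0.04, edgeR adjusted p = 9.7e-33). PROM1, the CD133 antigen, measured 45.0 ± 0.486 CPM in GTEA7 and 48.4 ± 0.934 CPM in GTEA1; the difference of -0.10 passed narrowly (edgeR adjusted p = 0.035) and was lost in 9 of the 19 other settings (edgeR or DESeq2 adjusted p from 0.061 to 0.11) and took the other sign with library size as the only scaling (log2 0.01). SOX9, a crypt progenitor factor, was lower, at -0.22 ± 0.04. LGR5 and ASCL2, which define crypt base stem cells, were too low to test, with 23 counts and 1 count over all 11 libraries.

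Wnt genes moved one way. Of 17 tested, 16 were higher in GTEA7 than in GTEA1 and 1 did not pass, with a median of 0.61, where 36.2% of all genes were higher. AXIN2, a feedback inhibitor that reads out beta-catenin, measured 42.6, 39.5, 40.0 and 39.2 CPM in the GTEA7 libraries and 7.29, 5.58, 5.56 and 5.07 CPM in the GTEA1 libraries, and 55.9, 60.1 and 64.9 CPM in DMSO. The groups did not overlap, and GTEA7 lay nearer to DMSO (log2 2.79 ± 0.08, edgeR adjusted p = 1.6e-34; against DMSO log2 -0.58 ± 0.05, edgeR adjusted p = 2.7e-12). RNF43, which removes Wnt receptors, measured 39.9 ± 1.12 CPM in GTEA7 and 14.3 ± 1.01 CPM in GTEA1. CEMIP, which binds and degrades hyaluronan, measured 50.5 ± 1.49 CPM in GTEA7 and 8.47 ± 0.667 CPM in GTEA1. TCF7L2, the DNA-binding partner of beta-catenin, measured 257 ± 11.0 CPM in GTEA7 and 114 ± 5.79 CPM in GTEA1. MYC was higher by 0.42 ± 0.03 against GTEA1 and by 0.36 against DMSO. Against DMSO 11 of the 17 were lower in GTEA7 and 1 higher, beside 10.4% and 12.0% of all genes, and the medians over DMSO were -0.27 in GTEA7 and -1.08 in GTEA1.

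Of 9 pluripotency factors 2 were higher (22.2%), MYC and SOX2, and 4 were lower (44.4%), beside 36.2% and 36.4% of all genes. SOX2 had no count in any GTEA1 library and 0.288, 0.614, 0.885 and 0.657 CPM in GTEA7, which makes it at least 11.7-fold higher against a floor of 3 counts over the GTEA1 group. HMGA1, a chromatin protein of undifferentiated cells, measured 1005 ± 20.4 CPM in GTEA7 and 4438 ± 106 CPM in GTEA1, and the differentiation factor KLF4 was lower, at -1.58 on the log2 scale. In the BMP and TGF-beta list 12 of 23 were higher (52.2%) and 9 lower (39.1%), with a median of 0.23, where 36.2% and 36.4% of all genes were. The inhibitors of differentiation ID2 and ID3 lay between the other groups, with 89.2 CPM in GTEA7, 31.5 in GTEA1 and 169 in DMSO (means) for ID2 and 21.5 CPM in GTEA7, 7.83 in GTEA1 and 59.1 in DMSO (means) for ID3. ID1 was lower in GTEA7 than in either: 169 CPM in GTEA7, 252 in GTEA1 and 223 in DMSO (means). In the Notch list 7 of 16 were higher (43.8%) and 6 lower (37.5%), near the shares of all genes, and the median of 0.00 ran from -0.04 to 0.11 over the settings tried.

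**Figure D5:**
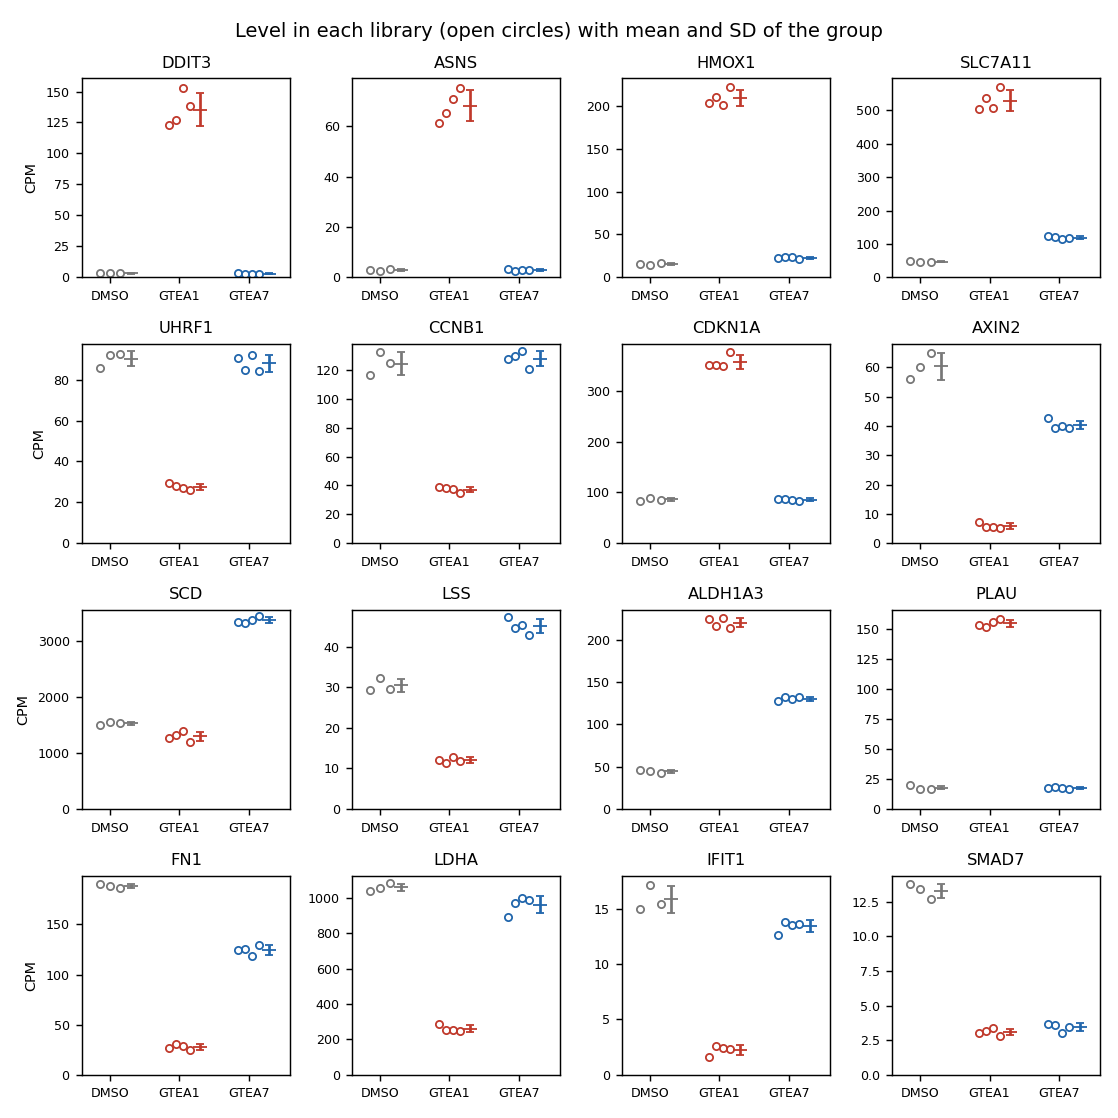
Level in CPM (vertical axis, from 0) of 16 genes in each library, with DMSO in grey, GTEA1 in red and GTEA7 in blue; the bar beside each group is its mean with SD. GTEA7 lies with DMSO for DDIT3 and CDKN1A, above both groups for SCD and LSS, between them for HMOX1, AXIN2, ALDH1A3 and FN1, and with GTEA1 for SMAD7.

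Migration genes were mostly lower in GTEA7. Of 39 genes of migration, proteolysis and matrix tested 26 were lower, 12 higher and 1 did not pass, with a median of -0.53, where 36.4% of all genes were lower. The whole urokinase system of 4 genes was lower. PLAU, the urokinase that activates plasmin at the cell surface, measured 17.7, 18.6, 17.7 and 16.8 CPM in the GTEA7 libraries and 153, 151, 155 and 158 CPM in the GTEA1 libraries, and 19.6, 16.8 and 17.0 CPM in DMSO. GTEA7 and DMSO overlapped, and GTEA1 lay 8.70-fold above GTEA7 (log2 -3.12 ± 0.05, edgeR adjusted p = 2.2e-46). Its receptor PLAUR measured 26.9 ± 1.45 CPM in GTEA7 and 132 ± 3.47 CPM in GTEA1. The laminin-binding integrin ITGA3 was lower, at -1.90, and the protease inhibitor TIMP1 at -2.02, on the log2 scale.

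Other members were higher in GTEA7. FN1, fibronectin, measured 124, 126, 118 and 129 CPM in the GTEA7 libraries and 26.8, 30.7, 29.1 and 24.6 CPM in the GTEA1 libraries, and 190.0, 188 and 187 CPM in DMSO. It lay between the groups (log2 2.16 ± 0.05, edgeR adjusted p = 2.4e-39; against DMSO log2 -0.60 ± 0.04, edgeR adjusted p = 2.7e-17). CXCR4, a chemokine receptor of migrating cells, measured 2.94, 3.38, 3.30 and 3.88 CPM in the GTEA7 libraries and 0.230, 0.367, 0.327 and 0.321 CPM in the GTEA1 libraries, and 7.17, 7.34 and 7.38 CPM in DMSO. All GTEA7 libraries were above all GTEA1 libraries and under all DMSO libraries (log2 3.39 ± 0.24, edgeR adjusted p = 1.0e-17). MMP7, the matrilysin of colon tumours, had 3 counts over all GTEA1 libraries, and its ratio of GTEA7 to GTEA1 was 11.7 with a counting interval of 3.72 to 58.8. S100A4, a motility protein, was higher by 1.13 ± 0.08.

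Of 12 mesenchymal genes tested 4 were higher (33.3%) and 7 lower (58.3%), with a median of -0.42, beside 36.2% and 36.4% of all genes. The higher ones were FN1, NCAM1, SPARC and S100A4. ZEB1, a repressor of E-cadherin, measured 7.24 ± 0.900 CPM in GTEA7 and 16.1 ± 1.28 CPM in GTEA1. AXL, a receptor tyrosine kinase, measured 36.0 ± 1.23 CPM in GTEA7 and 170.1 ± 6.16 CPM in GTEA1. VIM, the filament protein vimentin, measured 1.32 ± 0.172 CPM in GTEA7 and 3.02 ± 0.121 CPM in GTEA1. SNAI2, another repressor of E-cadherin, was lower, at -0.69, with 0.718 ± 0.261 CPM in GTEA7 and 1.16 ± 0.198 CPM in GTEA1 (edgeR adjusted p = 0.028), and it did not pass without GTEA1 replicate 1 (edgeR adjusted p = 0.064), GTEA1 replicate 2 (0.074) or GTEA7 replicate 3 (0.12), with library size as the only scaling (0.062) or by DESeq2 (0.074). Among 31 epithelial genes 11 were higher and 15 lower, with a median of -0.21, beside 36.2% and 36.4% of all genes. E-cadherin, CDH1, differed little at 142 ± 3.04 CPM in GTEA7 and 164 ± 8.01 CPM in GTEA1 (log2 -0.21 ± 0.03, edgeR adjusted p = 9.6e-07). CLDN7, a tight junction claudin, was lower, at -1.61 ± 0.05, the splicing factor ESRP1 at -0.94 ± 0.03 and the keratin KRT80 at -2.34 ± 0.11. DSC2, a desmosomal cadherin, was higher by 1.39 ± 0.04 and KRT23 by 1.67 ± 0.08.

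AP-1 and ERK output genes were mostly lower in GTEA7, where 36.4% of all genes were. Of 10 AP-1 genes 8 were lower and 2 higher, with a median of -1.52. FOSL1, the ERK-stabilised FOS protein FRA1, measured 24.5, 23.6, 25.2 and 21.3 CPM in the GTEA7 libraries and 180.0, 194, 202 and 199.9 CPM in the GTEA1 libraries, and 18.6, 19.3 and 17.6 CPM in DMSO. GTEA7 lay just above DMSO, and GTEA1 far above both (log2 -3.03 ± 0.05, edgeR adjusted p = 4.9e-46). JUNB measured 21.9 ± 1.45 CPM in GTEA7 and 74.0 ± 1.73 CPM in GTEA1 and 28.1, 32.1 and 31.3 CPM in DMSO, so GTEA7 was under DMSO and GTEA1 above it; JUN was lower, at -2.14 ± 0.06, and so was ATF3, which ATF4 also induces, at -3.26 ± 0.06. FOSL2 and BATF3 were the members higher, by 0.29 ± 0.05 and 0.64 ± 0.21. Of 22 ERK output genes and EGFR ligands 16 were lower and 3 higher, with a median of -0.57. EPHA2, an ephrin receptor, measured 65.1 ± 1.89 CPM in GTEA7 and 384 ± 19.1 CPM in GTEA1. AREG, an EGFR ligand, measured 249 ± 9.27 CPM in GTEA7 and 788 ± 9.81 CPM in GTEA1. HBEGF, another ligand, measured 7.32 ± 0.347 CPM in GTEA7 and 39.8 ± 4.37 CPM in GTEA1. ETV1, an ERK-responsive factor, was higher by 1.56 ± 0.05.

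Inflammatory lists went opposite ways, where 36.2% of all genes were higher in GTEA7 and 36.4% lower. Of 19 NF-kappaB genes 14 were lower and 2 higher, with a median of -0.48, and 1 was higher without GTEA1 replicate 1, 3 or 4, without GTEA7 replicate 2 or 3, or by DESeq2. CXCL8, a chemokine, measured 1.33 ± 0.228 CPM in GTEA7 and 8.05 ± 0.828 CPM in GTEA1. LCN2, lipocalin, measured 0.785 ± 0.215 CPM in GTEA7 and 6.55 ± 0.858 CPM in GTEA1. The subunits NFKB2 and RELB were lower, at -1.09 ± 0.04 and -1.58 ± 0.10. The subunit NFKB1 was higher by 0.51 ± 0.06. Of 29 interferon-stimulated genes 18 were higher in GTEA7 and 5 lower, with a median of 0.58. IFIT1, which binds foreign RNA caps, measured 12.6, 13.8, 13.6 and 13.6 CPM in the GTEA7 libraries and 1.61, 2.64, 2.42 and 2.31 CPM in the GTEA1 libraries, and 14.9, 17.2 and 15.4 CPM in DMSO. GTEA7 lay slightly under DMSO and well above GTEA1 (log2 2.56 ± 0.12, edgeR adjusted p = 2.4e-25). OAS3, a sensor of double-stranded RNA, measured 65.6 ± 5.32 CPM in GTEA7 and 14.4 ± 2.01 CPM in GTEA1. The members lower in GTEA7 were IRF7, ISG15, ISG20, IFI35 and STAT2, at -1.05 to -0.33 on the log2 scale. The interferon-stimulated response element stood in 18 of 24 promoter windows (75.0%) against 3.81% of tested genes. The 250 bases before IFIT1 (chr10:89392373-89392622, plus strand) hold it at 116 and 103 bases before the start, both on the other strand, in capitals.
IFIT1: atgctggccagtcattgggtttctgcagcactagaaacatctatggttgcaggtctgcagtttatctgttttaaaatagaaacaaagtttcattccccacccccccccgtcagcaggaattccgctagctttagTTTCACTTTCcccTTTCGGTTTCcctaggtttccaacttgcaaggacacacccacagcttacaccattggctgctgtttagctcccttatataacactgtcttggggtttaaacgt

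Glycolysis and heat shock genes were mostly higher in GTEA7 (36.2% of all genes were). Of 34 glycolysis and hypoxia genes 25 were higher and 6 lower, with a median of 0.74. LDHA, lactate dehydrogenase, measured 889, 968, 998 and 989.6 CPM in the GTEA7 libraries and 288, 252, 255 and 246 CPM in the GTEA1 libraries, and 1038, 1056 and 1081 CPM in DMSO. GTEA7 lay above all GTEA1 libraries and below all DMSO libraries (log2 1.89 ± 0.04, edgeR adjusted p = 2.7e-30). The glucose transporter SLC2A1 measured 296 ± 13.3 CPM in GTEA7 and 95.2 ± 5.09 CPM in GTEA1, and the enzymes PGAM1, GPI and ENO1 were higher by 1.58, 1.24 and 1.20. VEGFA, the vessel growth factor and a hypoxia target, was lower, at -1.85 ± 0.04. Of 19 heat shock genes 14 were higher and 4 lower, with a median of 0.43, and HSP90AA1, the inducible cytosolic HSP90, measured 3331 ± 129 CPM in GTEA7 and 1314 ± 89.9 CPM in GTEA1. HSPA1A and HSPA1B, the classical inducible heat shock genes, had 3 counts and 1 count over all libraries and were not tested. The heat shock element stood in 6 of 17 windows (35.3%) against 0.519%.

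The counts of further lists stand beside 36.2% of all genes higher and 36.4% lower. Of 31 proteasome subunits 18 were higher and 8 lower (median 0.13), the 8 becoming 4 without GTEA7 replicate 4 and 2 with library size as the only scaling. Of 22 ribosome biogenesis genes 16 were higher and 1 lower (median 0.39), among them nucleolin, NCL, at 0.91 ± 0.03. Of 54 cytosolic ribosomal protein genes 46 were lower and 4 higher (median -0.30); many have processed copies, so single members are uncertain. Of 36 nuclear-encoded respiratory chain genes 15 were higher and 6 lower (median 0.08), with 23 higher when library size was the only scaling. Of 13 mitochondrially encoded genes 9 were higher and 2 lower (median 0.75), with 0 lower when library size was the only scaling and 1 lower without GTEA1 replicate 1 or 3 or GTEA7 replicate 1, 2 or 3. Among those higher was MT-CO3, a subunit of cytochrome oxidase, at 14263 ± 193 CPM in GTEA7 and 8453 ± 425 CPM in GTEA1. Mitochondrial genes took 15.0% to 15.3% of counts in GTEA7, 12.5% to 13.6% in GTEA1 and 13.3% to 15.1% in DMSO. DMSO replicate 2, at 13.3%, lay inside the GTEA1 range. Of 13 autophagy genes 12 were lower and none higher, with MAP1LC3B at -1.60 ± 0.03, while of 16 lysosome genes 10 were higher and 4 lower, with cathepsin L, CTSL, among the latter at -2.20 ± 0.04. Of 7 metallothionein and zinc genes 6 were lower (median -0.67), with MT1X at -2.45 ± 0.13. Of 18 YAP and TEAD genes 6 were higher and 9 lower (median -0.12), of 8 intestinal differentiation genes 5 and 3 (median 0.37), and of 13 histone genes 7 and 5 (median 0.20). The histone list was divided by class. Of 9 replication-dependent histone genes listed, 5 had enough counts to be tested, and of these 0 were higher and 4 lower (median -0.43). The RNA was poly(A)-selected, which captures little mRNA without a poly(A) tail. The counts may therefore not stand for all mRNA of these replication-dependent genes. Of 8 variant histone genes 7 were higher and 1 lower (median 0.54). In the antigen presentation and checkpoint list 3 of 13 were higher and 5 lower (median -0.03, and 0.08 with library size as the only scaling), with the checkpoint ligand CD274, PD-L1, at -1.10 ± 0.12.

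For some genes the extracts lay on opposite sides of DMSO, with both differences from DMSO passing. Among genes with a symbol at a mean of 1 CPM or more, 505 had GTEA7 above and GTEA1 below DMSO, and 387 the reverse. Of all 17963 genes tested, 22.5% passed between GTEA7 and DMSO and 71.8% between GTEA1 and DMSO. The number of genes with a symbol at that level is not given, so the counts carry no share. By the size of the GTEA7 difference from DMSO the former were led by SCD, NRIP1, FASN and ABCG2. NRIP1, a corepressor of nuclear receptors, measured 84.5, 85.1, 88.1 and 85.5 CPM in the GTEA7 libraries and 20.9, 15.9, 16.4 and 15.2 CPM in the GTEA1 libraries, and 41.6, 43.2 and 39.5 CPM in DMSO. GTEA7 was highest, DMSO intermediate and GTEA1 lowest, with no overlap (log2 2.34 ± 0.06, edgeR adjusted p = 4.6e-36). ABCG2, a drug exporter, measured 8.64, 8.65, 7.72 and 7.82 CPM in the GTEA7 libraries and 3.07, 3.60, 3.14 and 2.76 CPM in the GTEA1 libraries, and 3.94, 3.78 and 4.97 CPM in DMSO; its fall in GTEA1 against DMSO did not pass without DMSO replicate 3 (edgeR adjusted p = 0.10). On the reverse side stood RN7SKP23, AMOTL2, GALNT13, HES1 and KDM7A. AMOTL2, which holds YAP in the cytoplasm, measured 11.9, 12.6, 13.0 and 11.5 CPM in the GTEA7 libraries and 32.1, 33.8, 37.1 and 34.0 CPM in the GTEA1 libraries, and 21.7, 22.2 and 21.1 CPM in DMSO. GTEA7 was lowest and GTEA1 highest (log2 -1.48 ± 0.06, edgeR adjusted p = 1.5e-26). HES1, a Notch target, measured 12.1 ± 1.96 CPM in GTEA7 and 26.6 ± 3.85 CPM in GTEA1, and its rise in GTEA1 over DMSO did not pass with library size as the only scaling (edgeR adjusted p = 0.055). KDM7A, a histone demethylase, measured 49.0 ± 2.37 CPM in GTEA7 and 111 ± 8.97 CPM in GTEA1. RN7SKP23 is a pseudogene of a small nuclear RNA with many copies, and its place below DMSO in GTEA7 did not hold without DMSO replicate 2 (edgeR adjusted p = 0.051). GALNT13 was near 1 CPM and lost its difference of GTEA7 from DMSO on leaving out DMSO replicate 1, 2 or 3 (edgeR adjusted p from 0.074 to 0.11) or GTEA7 replicate 1, 2 or 4 (from 0.052 to 0.12).

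For other genes GTEA7 differed from DMSO and not from GTEA1 by the test, whether or not GTEA1 passed against DMSO. Among genes with a symbol at a mean of 1 CPM or more, 333 passed above DMSO in GTEA7 and did not pass between the extracts. A further 308 passed below DMSO in GTEA7 and not between the extracts. Of all 17963 genes tested, 12.0% passed above and 10.4% below DMSO in GTEA7, whether or not the extracts differed. SMAD7, an inhibitor of TGF-beta and BMP signalling, measured 3.69, 3.58, 3.01 and 3.48 CPM in the GTEA7 libraries and 2.99, 3.16, 3.40 and 2.83 CPM in the GTEA1 libraries, and 13.7, 13.4 and 12.7 CPM in DMSO. The extracts overlapped and both lay far under DMSO: GTEA7 over GTEA1 was 0.15 ± 0.14 with a 95% interval of -0.13 to 0.43 (edgeR adjusted p = 0.33), and GTEA7 over DMSO log2 -1.95 ± 0.11, edgeR adjusted p = 2.7e-20. DLX2, a homeobox gene, was -1.81 and -2.07 over DMSO in GTEA7 and GTEA1, with an interval of -0.16 to 0.67 for the difference of extracts. CYP1A1, a target of the aryl hydrocarbon receptor, measured 5.53, 5.89, 5.96 and 5.85 CPM in the GTEA7 libraries and 6.83, 7.20, 6.48 and 6.68 CPM in the GTEA1 libraries, and 2.17, 2.32 and 2.07 CPM in DMSO. Its difference between extracts was -0.23 ± 0.11 with an interval of -0.44 to -0.01 (edgeR adjusted p = 0.052) although the libraries did not overlap, and it passed by limma-voom (adjusted p = 0.042) and with a filter of 1 CPM (edgeR adjusted p = 0.048). Of the 11 aryl hydrocarbon and xenobiotic response genes tested 5 were higher in GTEA7 (45.5%) and 3 lower (27.3%), beside 36.2% and 36.4% of all genes. Among the lower ones was TIPARP, another receptor target, at -1.36 ± 0.04. Over all genes, 3344 (18.6%) had a 95% interval for GTEA7 over GTEA1 that lay inside 1.25-fold in both directions.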

How the data were processed

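Poly(A)-selected RNA of HCT116 cells was sequenced by the submitters, and what they deposited is 1 table of whole-number counts of reads for each gene and library, not normalized. Per the submitters' processing notes, STAR was used along with HTSeq 0.5.4, DESeq 1.10.1, Picard, GATK and SAMtools 0.1.18, whose roles are not given. The sources used here do not state the genome build, the annotation or the strand setting, so reads of a gene and an antisense partner cannot be told apart. Of 61464 features, 840 carry submitters' identifiers with no gene name, and 659 of these were among those tested. Some widely expressed genes have next to no counts in the deposited table, so a low count is not a measure of absence.

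All 11 libraries were fitted together in edgeR 4.0.16 (R 4.3.3) on the deposited counts, with trimmed mean of M-values scaling, filterByExpr on the groups, a robust quasi-likelihood fit and Benjamini-Hochberg adjustment over 17963 genes. The contrast was GTEA7 minus GTEA1, the threshold an adjusted p of 0.05, and intervals are at 95%. Alternatives were other scalings and filters, a replicate block, the 8 extract libraries alone, limma-voom (limma 3.58.1), DESeq2 1.42.0 and leaving out each library in turn. Replicate pairs differed by more than sampling noise (chi-square per degree of freedom 1.35 to 3.7), so none were merged.

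The comparison, the gene lists and the motifs were chosen with earlier results of these data known. Lists are described by counts and medians, with no set test, and a member without enough counts is left out of both. Named genes are the 10 largest rises and falls without overlap of libraries at a mean of 1 CPM or more; up to 5 genes in each direction on opposite sides of DMSO, or apart from DMSO and not between extracts; up to 6 members of each list with the smallest adjusted p and any direction with 5 or fewer members; and 23 genes of interest for stress, stemness and migration, with HSPA5 added; some eligible genes are not reported here. Ratios against 1 to 3 counts have exact binomial intervals for counting error only. Promoter windows are from RefSeq (GRCh38.p14); 11562 tested genes matched by symbol, 3284 of them with more than 1 window, any of which could hold a match.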

Additional observations from a re-analysis of the deposited data

Results flagged for a closer look

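Within each group of 4 libraries, 318 sets of values (named genes and library measures) were checked for a highest or lowest library whose gap to the next exceeded Dixon's critical value at 95%; 13 did, and chance gives about 1 in 20. In GTEA7, replicate 4 was high for KDM7A at 52.5 CPM (others 47.4 to 48.1), for STAT2 at 96.7 CPM (others 81.9 to 82.9) and for the mitochondrial share at 15.3% (others 15.0%), and low for CALR at 715.9 CPM (others 758.8 to 765.9). GTEA7 replicate 3 was low for PADI3 at 3.01 CPM (others 3.94 to 3.97) and for VIM at 1.06 CPM (others 1.38 to 1.44). GTEA7 replicate 2 was low for RNF43 at 38.2 CPM (others 40.2 to 40.5). GTEA7 replicate 1 was low for TIMP1 at 70.2 CPM (others 75.5 to 76.1). In GTEA1, replicate 4 was low for FASN at 336 CPM (others 419 to 431), high for CDKN1A at 377 CPM (others 349 to 351) and high for COL3A1 at 2.70 CPM (others 0 to 0.131). GTEA1 replicate 3 was high for HES1 at 32.3 CPM (others 24.5 to 24.9), and MMP7 was at 0 there against 0.0642 to 0.0767 CPM in the others. Only for COL3A1 did leaving the library out move a gene across the threshold, as given above.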

How the results depend on the processing

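Counts over all genes moved by less than 1.5 times under every alternative run. With the replicate number as a block 13016 genes passed, 6500 higher and 6516 lower; same-numbered GTEA7 and GTEA1 libraries had deviations correlated at -0.05, 0.10, 0.06 and 0.10, not every library correlated best with its own number, and the labels give the numbers no shared origin. Without each library in turn 12526 to 13204 genes passed. With no filter on low counts 14108 passed, with at least 1 CPM in 4 libraries 12112, with the extract libraries alone 12450, by limma-voom 13045 and by DESeq2 12228. Of the calls tested in each setting, 91.6% were kept with library size as the only scaling and at least 93.6% elsewhere. Among list medians under alternatives 656 moved by less than the spread between libraries, 39 moved further, and 8 changed sign: antigen presentation with library size only (0.080), the aryl hydrocarbon list with the 1 CPM filter (0.054), and the Notch list, near 0, by limma-voom (-0.0040) and on leaving out GTEA1 replicate 1, 3 or 4 or GTEA7 replicate 1 or 4, with -0.039 to 0.044 over all libraries left out. Most of the 39 came from 1 setting. With library size as the only scaling 30 list medians moved further than that spread, 1 changed sign and 6 moved less. Of the counts of list members 21 moved by over 1.5 times, all of them counts of 8 or fewer except the respiratory chain's with library size only. PROM1 reversed with library size only (0.0059). SOX2 was not tested with the 1 CPM filter or with the extract libraries alone. The cause of these changes was not tested. Depth limits the low genes: among those below 1 CPM on average 50.7% passed, against 88.0% at 100 CPM or more.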

Other observations

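The difference between the extracts reached beyond the gene lists. Protein-coding genes passed most often (77.7% of 13304, 5160 higher and 5175 lower in GTEA7). By the types of GENCODE v29, matched by Ensembl identifier, long intergenic RNAs passed in 60.2% of 789 cases with 264 higher and 211 lower, antisense RNAs in 59.6% of 1072, and processed pseudogenes in 45.7% of 738. Transcripts inside introns on the host's strand had the most uneven split of the types with 50 or more members: 29 of 163 were higher in GTEA7 and 67 lower, with a median log2 fold change of -0.34. Their reads cannot be told apart from reads of unspliced RNA of the host gene. The median standard error was 0.26 for these intronic transcripts and 0.06 for protein-coding genes. The share lower also rose with level over all genes, from 19.3% below 1 CPM to 52.1% at 100 CPM or more.

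A pair of gene families, picked after their values were seen, stood on different sides, beside 36.2% of all genes higher and 36.4% lower. Of 178 zinc finger genes named ZNF on chromosome 19, repressors that sit in clusters, 96 were higher in GTEA7 and 37 lower, with a median of 0.33. The 244 ZNF genes elsewhere had 117 higher and 71 lower, with a median of 0.16. Of 22 host genes of small nucleolar RNAs (SNHG), 5 were higher and 11 lower, with a median of -0.17. Features that carry only the submitters' own identifiers took 0.517% to 0.577% of counts in the GTEA7 libraries, 0.525% to 0.577% in DMSO and 1.02% to 1.1% in GTEA1. What these features are was not tested.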
